A study of Mus musculus with 12 samples.

Results

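The genes described here are the enzymes and regulators of cholesterol and fatty acid synthesis, read from microarrays of laser-dissected intestinal epithelium of tumor-prone mice. The list named 31 genes by symbol, and each was represented by the probe set mapped to that symbol alone with the highest mean over the 12 arrays. In all, 30 of the 31 had such a probe set, out of 19938 genes measured in the same way; Acat2 had none and was not analysed here. The 30 genes comprised 3 regulators (Srebf1, Srebf2 and Insig1), the sterol carrier Stard4, 17 enzymes of the sterol pathway and 9 enzymes that make, elongate or desaturate fatty acids.

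Sterol and fatty acid synthesis are controlled together by membrane-bound transcription factors encoded by Srebf1 and Srebf2. When sterols are plentiful, the Insig proteins hold these factors in the endoplasmic reticulum, and when sterols run short the factors are carried to the Golgi, cleaved and sent to the nucleus, where they switch on their targets, Insig1 among them. The Srebf2 product acts mainly on the sterol pathway and the main Srebf1 product in tissues mainly on fatty acid synthesis, while oxysterol receptors raise Srebf1 and some of its targets. Intestinal epithelium both absorbs cholesterol from the diet and makes its own, and dividing crypt cells need both lipids for new membranes.

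All mice were C57BL6/J males carrying APCmin/+, an allele that gives intestinal tumors, and their tissue was taken at 25 weeks of age. Mice labelled FSPCre-PPARB -/- (here KO) were set against PPARB flox/flox littermates (here floxed); PPARB, gene symbol Ppard, encodes a fatty acid-activated nuclear receptor. The cells in which the FSP Cre acts are not given in the labels, and the arrays sampled epithelium only. Tumor epithelium gave 3 floxed and 3 KO arrays, and epithelium next to tumors gave 2 floxed and 2 KO arrays. For a further 2 adjacent arrays the title and the genotype entry contradict each other, so both were kept out of the comparisons by genotype. The title of conflict array 1 reads KO where its genotype entry reads floxed, and for conflict array 2 it is the other way round. Nothing in the labels says that arrays came from separate animals, so p-values measure only the spread between these arrays and are too small if some share an animal.

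In 4 floxed arrays (tumor 1 and 2, adjacent 1 and 2) the signal was weak. Their log2 values spread less over genes (SD 1.04 to 1.09 against 1.49 to 1.57 on the other 8 arrays) and correlated with no other array above r = 0.64. Both floxed adjacent arrays are of this kind, so every KO against floxed difference next to tumors sets well-spread arrays against weak ones; genotype and signal quality cannot be told apart there. The mean log2 level of 7 epithelial markers ran from 4.96 to 6.23 on the weak arrays and from 6.31 to 8.29 on the others, so the labelled epithelium is marked less clearly on the former. Ppard itself read 5.51 to 6.50 on the 5 KO arrays and 4.48 to 5.79 on the 5 floxed arrays. The value of 5.79 was on floxed tumor array 3, the floxed array without weak signal. These readings cannot check the label, because the cells in which the Cre acts are not given and 4 floxed arrays are weak. Where the Ppard probes lie relative to the deleted segment was not examined here. Conflict array 2 correlated at 0.956 to 0.973 with the KO arrays, and conflict array 1 at 0.90 with floxed tumor array 3.

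**Figure D1:**
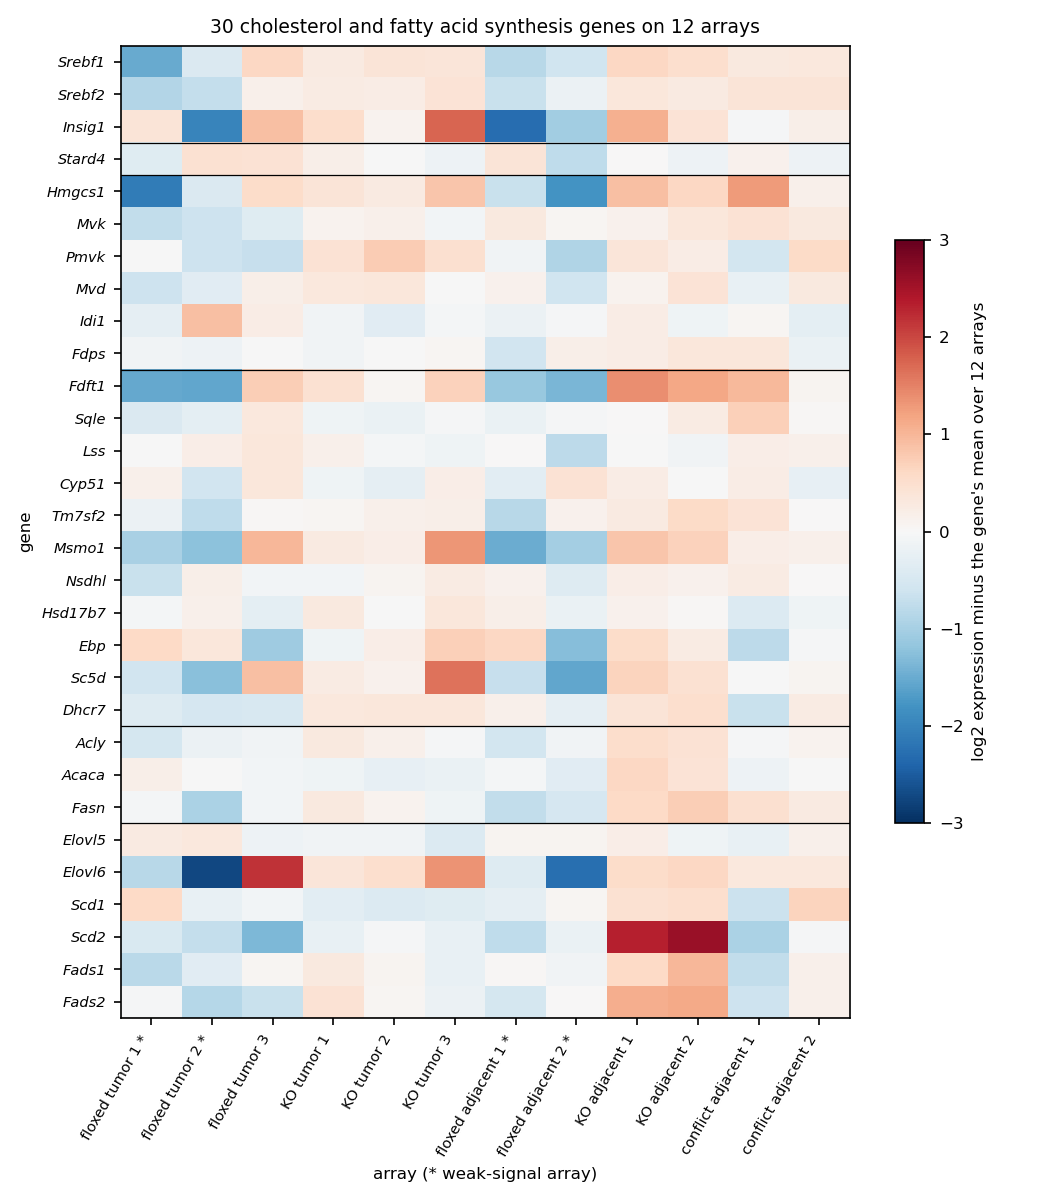
Each row is one of the 30 genes, grouped by role, and each column one of the 12 arrays; colour gives the log2 level minus that gene's mean over the 12 arrays. The 4 weak-signal floxed arrays are the pale or blue columns for Fdft1, Msmo1 and Hmgcs1, and Scd2 is red on both KO adjacent arrays.

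Within KO mice, where no weak-signal array stands on either side, the gene that differed between tumor and the epithelium beside it was a desaturase. Scd2, a stearoyl-CoA desaturase that makes monounsaturated fatty acids, read 4.21, 4.39 and 4.20 on KO tumor arrays 1 to 3 against 6.77 and 7.02 on the KO adjacent arrays. On the floxed tumor arrays it read 3.97, 3.71 and 3.08, and on the floxed adjacent arrays 3.67 and 4.22. The KO adjacent pair thus stood alone: every other array, including the conflict arrays at 3.48 and 4.40, lay below 4.5. Scd2 was lower in KO tumor than in KO adjacent epithelium by a log2 difference of -2.63 ± 0.31 (SE), with a limma adjusted p of 0.038. It was the 1 gene of the 30 that passed, where 0.0201% of all genes did. With arrays weighted by their quality 7 of the 30 fell, where 636 of all 19938 genes fell and 5.23% passed in either direction. The Scd2 call was kept without floxed tumor array 1 or 3 and lost without any other single array (adjusted p of 0.0581 to 0.794), while the difference stayed between -2.76 and -2.50. It was also lost after quantile normalization (adjusted p = 0.0683).

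Other genes of fatty acid synthesis lay lower in KO tumor as well, by less. Fads2, which starts the synthesis of long polyunsaturated fatty acids, read 5.68, 5.31 and 5.07 in KO tumor and 6.34 and 6.39 in KO adjacent epithelium. Fads1, the desaturase that acts later in that route, read 5.20, 4.99 and 4.68 against 5.51 and 5.91. For both genes all 3 tumor arrays lay below both adjacent arrays, by a log2 difference of -1.01 ± 0.32 for Fads2 and -0.76 ± 0.31 for Fads1, and neither passed the test over all genes (limma adjusted p = 1.0 for each).

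Scd1, the other stearoyl-CoA desaturase of the list, varied little within each tissue of the KO mice. It read 3.64, 3.56 and 3.61 in KO tumor and 4.41 and 4.47 in KO adjacent epithelium, a log2 difference of -0.83 ± 0.29. These are low values, each below the median of all genes on its array (4.46 to 4.51). The tumor values also lay below the median of probe sets without a symbol (3.92 to 3.93). Conflict arrays 1 and 2 read 3.32 and 4.63. Acaca, acetyl-CoA carboxylase, which commits acetyl-CoA to fatty acid synthesis, read 4.29, 4.19 and 4.24 against 5.04 and 4.84, a log2 difference of -0.70 ± 0.24. Fasn, the fatty acid synthase, read 5.40, 5.21 and 4.99 against 5.70 and 5.86, a log2 difference of -0.58 ± 0.31. The groups did not overlap for any of these 3 genes, and each had a limma adjusted p of 1.0. Acly, which makes cytosolic acetyl-CoA from citrate, also had no overlap, at -0.35 ± 0.26.

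Of the 9 fatty acid genes, 8 had a difference below 0, with a median of -0.70, against a median of 0.04 over all genes, of which 42.7% were below 0. The exception was the elongase Elovl6, at 0.15 ± 1.08. In 7 of the 9 every KO tumor array lay below both KO adjacent arrays, which held for 14.1% of all genes; the elongase Elovl5 and Elovl6 were the other two. Over all 30 genes 13 lay lower without overlap and 1, Pmvk, higher, as did 17.9% of all genes.

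Fitted on the 5 KO arrays alone, which leaves the weak-signal arrays out of the estimate of the spread, 4 of the 30 genes fell in tumor, where 1.29% of all genes fell and 1.85% passed in either direction. These were Scd2 (limma adjusted p = 0.000235), Scd1 (limma adjusted p = 0.0251), Fads2 (limma adjusted p = 0.0403) and Acaca (limma adjusted p = 0.0455), all of the fatty acid group. Scd2 passed with any 1 of these 5 arrays left out, at -2.76 to -2.50, whereas the other 3 genes did not all pass in each such fit. Between 1 and 5 of the 30 passed in those fits, where 10 to 633 of all 19938 genes did. Counting a conflict array as KO adjacent ended every call: with the one whose genotype entry reads KO the Scd2 difference was -1.80, and with the one whose title reads KO it was -1.49.

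**Figure D2:**
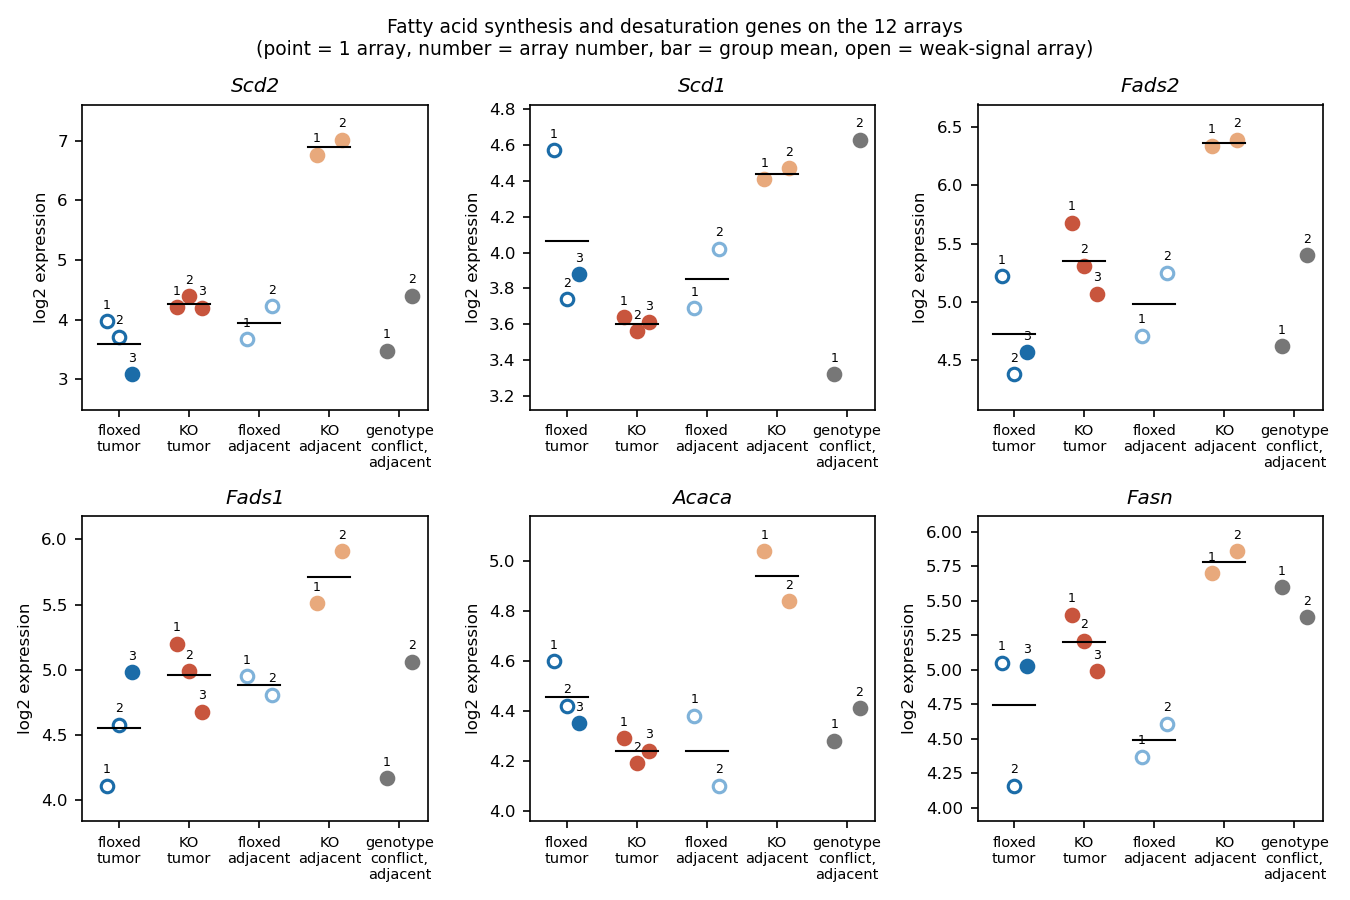
The log2 level of fatty acid genes on each of the 12 arrays; a point is 1 array with its number, a bar is the group mean and open points are weak-signal arrays. Scd2 read 6.77 and 7.02 on the KO adjacent arrays and at most 4.40 on any other array.

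Markers of cell state moved between the same arrays. The mean log2 level of 11 absorptive enterocyte markers was 8.09 to 8.80 on the KO tumor arrays against 7.22 and 6.29 on the KO adjacent arrays. For 10 crypt and adenoma markers it was 4.51 to 4.91 on the KO tumor arrays and 5.58 and 5.61 on the KO adjacent arrays. Of these 10 markers, 9 were lower in KO tumor than beside it, and 6 were lower in floxed tumor. All 11 enterocyte markers were higher in tumor in both genotypes, with a median log2 difference of 1.86 in KO and 2.38 in floxed mice. The tumor label was thus not borne out by higher adenoma markers, though most floxed arrays have weak signal. Fibroblast markers averaged 4.75 to 4.93 in KO tumor against 5.18 and 5.11 in KO adjacent epithelium. The 7 adipocyte markers measured, of interest because fat cells are rich in desaturases, averaged 4.18 to 4.32 in KO tumor and 4.18 and 4.15 in KO adjacent epithelium. The part of these markers in the differences of Scd2 and the other genes was not tested, and in dissected tissue fewer cells of a type and less RNA per cell cannot be told apart.

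In the sterol pathway the tissues of KO mice differed by less in the median. Of its 17 enzymes 13 were below 0 in tumor against adjacent epithelium, with a median log2 difference of -0.17; 0 passed by limma in the fit of 4 groups, and 0 had an unadjusted p under 0.05, against 2.47% of all genes, so few or none would be called at the background rate. Fdft1, squalene synthase, the first enzyme committed to sterols, had the most negative value: it read 6.11, 5.71 and 6.35 in KO tumor and 7.04 and 6.82 in KO adjacent epithelium, without overlap, a log2 difference of -0.87 ± 0.58 (limma adjusted p = 1.0). On the 5 KO arrays alone the Fdft1 difference was -0.87 ± 0.20 (limma adjusted p = 0.0743), and 0 of the 17 passed. Without overlap 5 of the 17 lay lower in tumor and 1 higher, where 14.1% and 17.9% of all genes did. Sqle, squalene epoxidase, a rate-limiting step, read 4.42, 4.35 and 4.51 against 4.55 and 4.79, a difference of -0.24 ± 0.28. Lss, lanosterol synthase, which closes the sterol rings, read 4.50, 4.30 and 4.21 against 4.35 and 4.25, with overlapping groups.

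The regulators differed little by tissue in KO mice. Srebf1 read 5.24, 5.36 and 5.33 in KO tumor and 5.58 and 5.46 in KO adjacent epithelium, a log2 difference of -0.21 ± 0.48. Srebf2 read 6.06, 6.04 and 6.23 against 6.16 and 6.08, a difference of -0.01 ± 0.33. The spread behind these errors is shared with the weak-signal arrays.

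Several sterol genes varied among the KO tumor arrays themselves. Insig1, whose product holds back the Srebf factors and whose own transcription they drive, read 7.12, 6.69 and 8.35 on KO tumor arrays 1 to 3, against 7.66 and 7.01 in KO adjacent epithelium. Array 3 was thus the highest of all 12, where the remaining arrays ran from 4.32 to 7.66. Sc5d, sterol-C5-desaturase, a late step, read 6.56, 6.45 and 7.94 on the same 3 arrays. Msmo1, a sterol methyl oxidase, read 5.46, 5.39 and 6.52.

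Over the 30 genes, 6 were higher on KO tumor array 3 than on the mean of arrays 1 and 2 by over 0.5 on the log2 scale, where 7.18% of all genes were. These were Insig1 (1.45), Sc5d (1.44), Msmo1 (1.09), Elovl6 (0.92), Ebp (0.69) and Hmgcs1 (0.51); the genes other than Insig1 were singled out after their values were seen. Elovl6 lengthens saturated fatty acids, Ebp is a sterol isomerase, and Hmgcs1 makes HMG-CoA, the substrate of the rate-limiting step. Fads2 and Fads1 went the other way on that array, at -0.43 and -0.41, and Fasn at -0.31. A difference of 1 array from 2 has no replicate and no test. Between the same arrays, Brunner and gastric gland markers averaged 4.71, 5.15 and 6.42 on KO tumor arrays 1 to 3, and their part in the Insig1 and Sc5d levels was not tested.

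**Figure D3:**
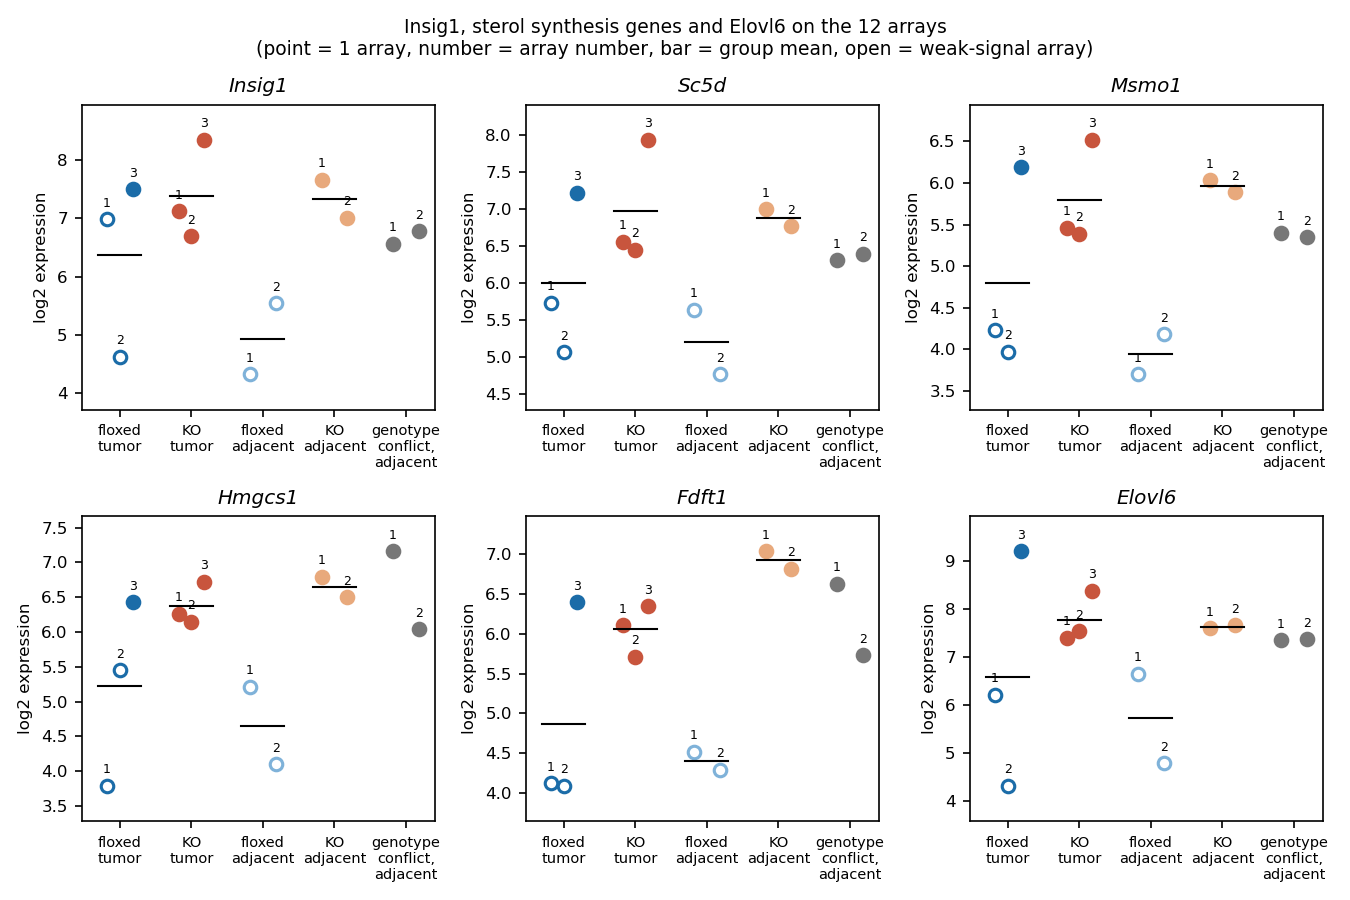
The log2 level of Insig1, 4 sterol synthesis genes and Elovl6 on each of the 12 arrays, drawn with numbered points for arrays, bars for group means and open points for weak-signal arrays. KO tumor array 3 reads highest of its group in all 6 panels, for instance 8.35 for Insig1 and 7.94 for Sc5d.

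The Srebf factors bind sterol regulatory elements and usually act with NF-Y and Sp1, so promoters were searched for all 3 motifs. RefSeq windows (assembly GRCm38.p6, 250 bases before to 50 after the annotated start) were held for 23 of the 30 genes. The windows below come from Hmgcs1, the 1 gene with a match to the sterol regulatory element, from Insig1 and Msmo1, which stood high together on KO tumor array 3, and from Fasn and Fads2 of the fatty acid group. Capitals mark matches on either strand to the element TCACNCCAC and to the boxes of NF-Y, CCAAT, and of Sp1, GGGCGG. An NF-Y box on the opposite strand appears as ATTGG in the lines printed here. An Sp1 box on the opposite strand appears in them as CCGCCC.
Hmgcs1: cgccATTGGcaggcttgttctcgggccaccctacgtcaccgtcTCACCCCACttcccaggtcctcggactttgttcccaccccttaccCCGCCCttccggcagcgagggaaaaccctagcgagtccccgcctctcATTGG
Insig1: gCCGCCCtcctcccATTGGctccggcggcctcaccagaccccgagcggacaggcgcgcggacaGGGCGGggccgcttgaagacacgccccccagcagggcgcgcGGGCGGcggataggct
Msmo1: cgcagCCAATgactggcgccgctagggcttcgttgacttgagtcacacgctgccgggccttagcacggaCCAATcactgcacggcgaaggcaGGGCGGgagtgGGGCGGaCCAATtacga
Fasn: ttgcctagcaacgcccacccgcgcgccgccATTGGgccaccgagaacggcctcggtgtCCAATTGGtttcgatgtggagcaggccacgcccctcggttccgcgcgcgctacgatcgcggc
Fads2: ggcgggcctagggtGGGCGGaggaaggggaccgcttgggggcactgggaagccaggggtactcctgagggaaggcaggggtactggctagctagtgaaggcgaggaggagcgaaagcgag

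These lie at chr13:119690171-119690310 on the plus strand, chr5:28071182-28071301 on the plus strand, chr8:64733624-64733743 on the minus strand, chr11:120824548-120824667 on the minus strand and chr19:10101584-10101703 on the minus strand. In the Fasn window an NF-Y box on each strand overlaps, read as CCAATTGG. The full element was found in 1 of the 23 promoters (4.35%), against 1.44% of all 27025 genes in the table. CCAAT was found in 20 of 23 (87%) against 41.1% of all genes and 42.3% of protein-coding genes, and GGGCGG in 18 of 23 (78.3%) against 38.2% and 49.2%. The core CACNCCAC, which the full element contains, was found in 2 of 23 (8.7%) against 7.12%. A match of letters is a description of the window and does not show binding.

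Next to tumors, KO arrays read higher than floxed arrays for nearly the whole list, against the weak-signal floxed pair. Of the 30 genes, 3 rose in KO adjacent epithelium, where 2.91% of all genes rose and 6.06% passed in either direction. Scd2 was higher by 2.95 ± 0.34 (limma adjusted p = 0.0046). Fdft1 read 4.52 and 4.29 on the floxed arrays against 7.04 and 6.82 on the KO arrays, higher by 2.53 ± 0.64 (limma adjusted p = 0.0451). Fads2 read 4.71 and 5.25 against 6.34 and 6.39, higher by 1.38 ± 0.35 (limma adjusted p = 0.0472).

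Fasn, at 4.37 and 4.61 on the floxed arrays against 5.70 and 5.86, was just outside the threshold with 1.29 ± 0.34 (limma adjusted p = 0.0513). Insig1 read 4.32 and 5.54 on the floxed arrays and 7.66 and 7.01 on the KO arrays, a log2 difference of 2.41 ± 0.85 (limma adjusted p = 0.0991). Hmgcs1 and Msmo1 differed by 1.99 ± 0.68 and 2.02 ± 0.64. Of the 30 genes, 29 were above 0, with Elovl5 at -0.03 the exception, and the median was 0.73, against -0.04 over all genes, of which 47.6% were above 0. That baseline depends on brightness: without the dimmest 30% of genes, 27 of the 28 list genes left were above 0, and so were 63.7% of all genes, with a median of 0.24. After quantile normalization, or with one median and SD for all arrays, 25 of the 30 were above 0. In 20 of the 30 the groups did not overlap, where 32.1% of all genes were higher without overlap.

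Cell markers moved in the same comparison. All 7 epithelial markers were above 0, with a median of 1.72, as were 10 of 11 enterocyte markers and 9 of 10 crypt and adenoma markers. Cd44 (1.82) and Prom1 (2.02) of the crypt list and Dcn (1.53) of the fibroblast list rose. Adipoq of the adipocyte list fell by 1.32 on the log2 scale, while 3 of the 7 adipocyte markers were above 0 and 4 below. Adipoq read 2.72 and 2.82 on the KO arrays and 4.12 and 4.07 on the floxed arrays. Each value lay below the median of probe sets without a symbol on its array (3.941 to 4.335). The part of all these markers in the differences of the lipid genes was not tested.

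All 3 calls were lost when either KO adjacent array was left out. Without any 1 KO tumor or floxed adjacent array, or after quantile normalization, Scd2 alone of the 30 passed, where 155 to 427 of all 19938 genes did. Fitted on these 4 arrays alone 9 of the 30 rose, where 1778 of all 19938 genes rose and 17.2% passed in either direction. With arrays weighted by quality 8 rose, where 1862 of all genes rose and 20.2% passed in either direction. None of the 30 genes passed when the conflict arrays were added to the groups, under either reading of their labels. Over all genes, 123 rose and 84 fell after quantile normalization, in place of 580 and 629.

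In tumors, 0 of the 30 genes passed between KO and floxed arrays by limma, where 1.08% of all genes passed. At an unadjusted p under 0.05 there were 6 of the 30, against 23% of all genes, so the list lay no higher than the background. Dhcr7, the last enzyme of the pathway, had the smallest p: it read 4.39, 4.26 and 4.29 on the floxed arrays and 5.09, 5.11 and 5.12 on the KO arrays. The groups did not overlap, and the KO arrays averaged 5.10 ± 0.02 (SD, n = 3) against 4.31 ± 0.07 (SD, n = 3), a log2 difference of 0.79 ± 0.21 (limma adjusted p = 0.0848). Pmvk, phosphomevalonate kinase, read 4.99, 4.38 and 4.30 against 5.43, 5.76 and 5.47, higher in KO by 0.99 ± 0.29 (limma adjusted p = 0.0967).

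Mvk, mevalonate kinase, the step before Pmvk, read 4.33, 4.44 and 4.71 on the floxed and 5.16, 5.21 and 4.99 on the KO tumor arrays, without overlap. Srebf2 read 4.93, 5.10 and 5.96 on the floxed tumor arrays against 6.06, 6.04 and 6.23, a log2 difference of 0.78 ± 0.29 (limma adjusted p = 0.157). Srebf1 read 3.45, 4.54 and 5.60 against 5.24, 5.36 and 5.33, with overlap from floxed array 3. Scd2 differed by 0.68 ± 0.28 (limma adjusted p = 0.181). Of the 30 genes 23 were above 0, as were 49.6% of all genes. Here too the baseline depends on brightness. Without the dimmest 30% of genes, 23 of the 28 list genes left were above 0, and so were 64.9% of all genes. After quantile normalization, or with one median and SD for all arrays, 21 of the 30 were above 0. Without overlap 7 lay higher and 2 lower in KO tumor, where 13.2% of all genes lay higher and 13.9% lower.

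Floxed tumor arrays 1 and 2 are weak-signal arrays and array 3 is not, and several genes, named here after their values were seen, differed between them. Of the 30, array 3 was above both weak-signal arrays in 17, below both in 6 (Pmvk, Hsd17b7, Ebp, Scd2, Acaca and Elovl5) and between them in 7. The shares over all genes were not counted, so these numbers cannot be read as particular to the list. Fdft1 read 4.12, 4.09 and 6.40 on floxed tumor arrays 1 to 3, Msmo1 4.23, 3.97 and 6.19, and Elovl6 6.21, 4.31 and 9.20. Array 3 was above every KO tumor array for Fdft1 and Elovl6 and within their range for Msmo1. Without floxed tumor array 3, 10 of the 30 genes rose in KO, where 14% of all genes rose and 29.1% passed in either direction. Against floxed tumor array 3 alone, with the weak-signal arrays left out and the spread taken from the remaining groups, 4 rose and 1 fell, where 19.4% of all genes passed. Those that rose were Dhcr7 (0.82), Ebp (1.32), Pmvk (1.25) and Scd2 (1.18), and Elovl6 fell by 1.43 on the log2 scale.

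Dhcr7 and Pmvk rose in both of those fits, and Elovl6 passed in opposite directions, at 2.51 in the first and -1.43 in the second. Deviations of same-numbered KO and floxed tumor arrays correlated at r = 0.105 to 0.347, and those of unlike number at -0.291 to 0.246. With the array number as a block 0 of the 30 genes and 3.92% of all genes passed. With arrays weighted by quality 4 of the 30 rose (Fdft1, Hmgcs1, Srebf1 and Srebf2), where 1264 of all 19938 genes rose and 14.6% passed in either direction. The median of the 30 was 0.43 with all tumor arrays and -0.04 against floxed tumor array 3 alone. That array also carried the highest exocrine pancreas markers of the 12, at a mean log2 level of 8.01 against 4.63 to 6.57 in KO tumor, and Brunner and gastric gland markers at 6.74. It was also the highest of the 12 for enterocyte markers (9.23 against 8.09 to 8.80 in KO tumor) and epithelial markers (8.29 against 6.44 to 7.52). The part of those markers in the sterol gene levels was not tested.

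**Figure D4:**
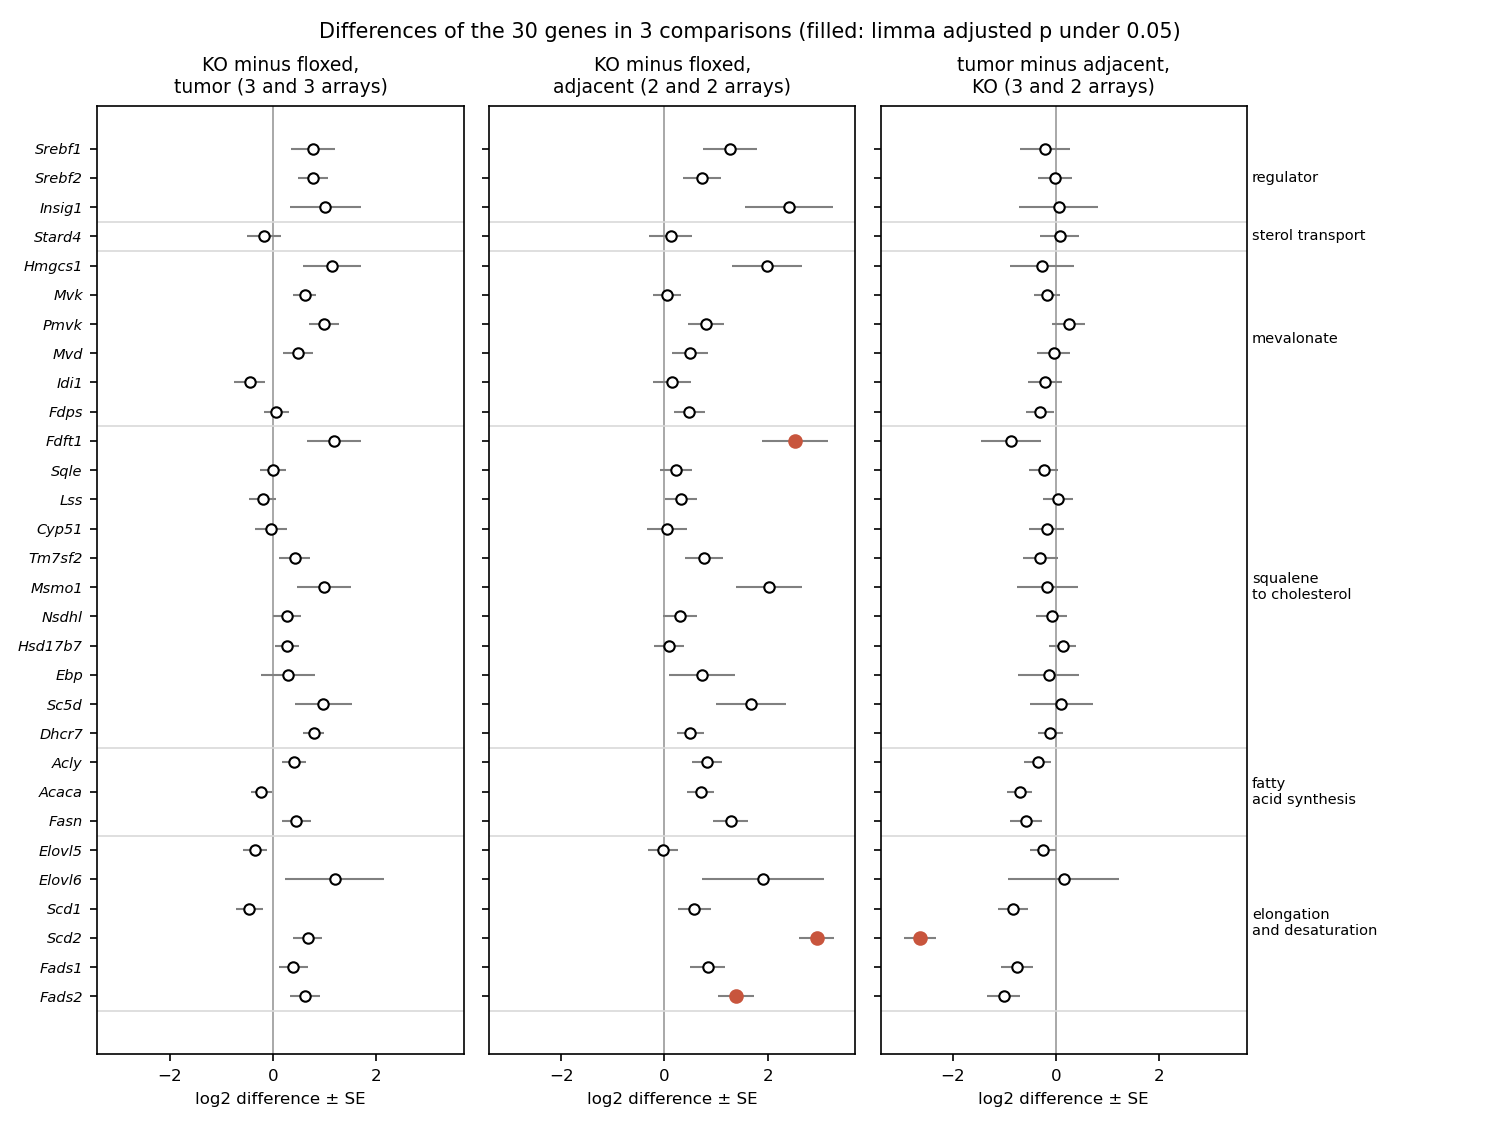
Log2 differences with standard errors for the 30 genes in 3 comparisons: KO against floxed tumor, KO against floxed adjacent epithelium, and KO tumor against KO adjacent epithelium. Scd2 lies at 2.95 next to tumors and at -2.63 between KO tissues, and the genes with the largest differences next to tumors are set against 2 weak-signal floxed arrays.

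In floxed mice 0 of the 30 genes passed between tumor and adjacent epithelium by limma, where 0.00502% of all genes did. At an unadjusted p under 0.05 there was 1, Mvk, against 12.5% of all genes. Mvk read 5.35 and 5.13 on the adjacent arrays against 4.33, 4.44 and 4.71 in tumor, a log2 difference of -0.75 ± 0.25 (limma adjusted p = 0.292). Mvk and Dhcr7 lay lower in tumor without overlap, where 10.1% of all genes did. Lss differed by 0.56 ± 0.29 and Insig1 by 1.44 ± 0.77. Of these 5 arrays 4 are weak-signal arrays.

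The Scd2 difference between tissues was more negative in KO than in floxed mice by -2.27 ± 0.44 (SE), yet this term did not pass over all genes (limma adjusted p = 0.495). In that test of whether the tissue difference depends on genotype, 0 of 19938 genes passed and 1281 (6.42%) had an unadjusted p under 0.05, 3 of the 30 among them: Scd2, Acaca (-0.92 ± 0.34) and Scd1 (-1.04 ± 0.41). A second Acaca probe set, given below and low on every array, read lower in tumor than beside it in both genotypes. The term was below 0 in 25 of the 30 genes and in all 9 fatty acid genes, where 9494 of all 19938 genes were below 0. Without the dimmest 30% of genes it was below 0 in 23 of the 28 list genes left, where 46.1% of all genes were above 0. The term shares its arrays with the comparisons above.

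Over all 12 arrays without regard to genotype, the 6 tumor arrays and the 6 adjacent arrays overlapped for every gene of the list, where 0.196% of all genes did not overlap, and 0 passed by limma, with 1 of the 30, Mvk, at an unadjusted p under 0.05, against 2.57% of all genes, which is near the background. Mvk ran from 4.33 through a median of 4.85 to 5.21 in tumor and from 5.13 through 5.35 to 5.49 beside it, a log2 difference of -0.51 ± 0.19. Scd2 differed by -1.0 ± 0.58 and Sqle by -0.25 ± 0.19.

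The remaining genes are given by their ranges; none of them passed in any of the 6 comparisons with all arrays of the groups, though Ebp passed between KO tumor and floxed tumor array 3 alone. The sterol carrier Stard4 ran from 4.73 to 5.57 over the 6 tumor arrays and from 4.35 to 5.48 over the 6 adjacent arrays. Fdps, which makes farnesyl diphosphate, ran from 4.85 to 5.06 in tumor and from 4.43 to 5.34 beside it, and Mvd, the decarboxylase of the mevalonate pathway, from 4.14 to 5.11 and from 4.16 to 5.18. Their tumor and adjacent ranges overlapped.

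The ranges of late sterol enzymes in tumor and adjacent epithelium also overlapped. Cyp51, the lanosterol demethylase, ran from 4.02 to 4.93 in tumor and from 4.27 to 5.03 in adjacent epithelium. Tm7sf2, a sterol reductase, ran from 4.04 to 4.97 and from 3.97 to 5.37, Nsdhl, which removes a carboxyl group from the sterol ring, from 4.04 to 4.95 and from 4.31 to 4.94, and Hsd17b7, a sterol ketoreductase, from 4.51 to 5.15 and from 4.39 to 4.99. Ebp had the widest spread of these, from 4.41 to 6.18 in tumor and from 4.19 to 6.09 beside it. Elovl5, which elongates polyunsaturated fatty acids, ran from 4.08 to 4.82 and from 4.28 to 4.70.

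Genes around the pathway were read from a list of 50 symbols on control, uptake, export and further lipid synthesis, of which 41 were measured. Between KO and floxed tumors 1 rose: Abcg5, part of the sterol exporter of the enterocyte brush border, by 1.72 ± 0.35 (limma adjusted p = 0.0484), a call lost in the fit on those 6 arrays alone. That 1 of 41 stands beside the 1.08% of all genes that passed. Next to tumors Fads3, a homologue of Fads1 and Fads2, rose by 1.12 (limma adjusted p = 0.0471) and Scd4, a homologue of Scd2, fell by 1.30 on the log2 scale (limma adjusted p = 0.041). These 2 of 41 are no more than the 6.06% of all genes that passed there; on the 4 adjacent arrays alone 6 rose and 1 fell, where 17.2% of all genes passed. Between KO tumor and KO adjacent epithelium 0 of the 41 passed by limma in the fit of 4 groups, with 4 at an unadjusted p under 0.05, against 2.47% of all genes. On the 5 KO arrays alone 4 rose in tumor, namely Abcg5 (1.29), its partner Abcg8 (0.99), the cholesterol importer Npc1l1 (1.40) and the triglyceride enzyme Dgat1 (1.25), and Fads3 fell by 0.79 on the log2 scale. In that fit 0.557% of all genes rose and 1.29% fell. All 11 enterocyte markers were higher in KO tumor on the same arrays, 5 of them past the threshold, and their part in these 4 was not tested.

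For 3 genes a second probe set carried the same symbol. The second Acaca probe set read 3.18, 3.29 and 3.03 in KO tumor and 3.69 and 3.82 in KO adjacent epithelium, in the same order as the first. In floxed mice it read 2.98, 3.16 and 2.49 in tumor and 3.18 and 3.77 beside it. These are low values, each below the median of probe sets without a symbol on its array (3.854 to 4.385 over the arrays), and most floxed arrays have weak signal. On this probe set the lower tumor reading was not confined to KO mice. The KO and floxed adjacent arrays overlapped on it, where on the first they did not. The second Fdft1 probe set read 4.64, 3.95 and 4.95 in KO tumor and 5.60 and 5.37 beside it, also in the order of the first, and 3.90 and 4.48 on the floxed adjacent arrays. On the floxed tumor arrays the Fdft1 probe sets disagreed: the second read 4.43, 5.33 and 4.32, with array 3 lowest, where the first had array 3 highest. For Idi1, which makes the isoprenoid unit used by later steps, floxed tumor array 2 was highest on both, at 4.39 and 4.40. Scd1 and Scd2 are close relatives, and how far their probes respond to each other was not examined here.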

How the data were processed

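Labelled RNA (WT Pico kit, biotin) of laser-dissected epithelium was hybridised to 12 one-colour Affymetrix arrays. The deposited values are log2 expression per probe set, made by the authors with RMA in Partek, per the submitters' processing notes; genome build and versions are not given in the sources used here. Values were used as deposited. Of 35556 probe sets, 21789 had 1 gene symbol, 1621 several and 12146 none; the highest-mean probe set per symbol gave 19938 genes. A limma 3.58.1 group-means model (R 4.3.3, lmFit and eBayes) on the 10 arrays with settled labels tested each contrast, with Benjamini-Hochberg adjustment over all genes and a threshold of 0.05; the tissue comparison used all 12. The procedure was tested on simulated data. Errors are standard errors unless marked SD. Deviations of number-matched tumor arrays from their group means correlated at r = 0.105, 0.121 and 0.347. Those of KO and floxed tumor arrays of unlike number ran from -0.291 to 0.246, so pairing by number is not shown. The number was used in the blocked fit only. Array number limits the precision. Genes given array by array are members that passed, the 3 smallest p-values per comparison, the regulators and the Scd pair; Elovl6, Hmgcs1, Msmo1 and Sc5d were added after their values were seen. The genes and lists were chosen with earlier results of these data known. Alternatives covered normalization, low-value filters, weights, labels and leaving out arrays.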

Additional observations from a re-analysis of the deposited data

Results flagged for a closer look

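Among the 15 genes given in full, 30 groups of 6 arrays (6 tumor or 6 adjacent, genotypes together) were examined for 1 array far from the rest, and chance flags about 1 in 20 such groups. In 3 of them an array stood apart, each time a weak-signal floxed array. Fasn read 4.16 on floxed tumor array 2, lowest of the 6 tumor arrays by 0.82. Scd1 read 4.57 on floxed tumor array 1, highest of the 6 tumor arrays by 0.7. Lss read 3.57 on floxed adjacent array 2, lowest of the 6 adjacent arrays by 0.68. The causes were not tested.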

How the results depend on the processing

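Numbers of the 30 genes called are given per setting, against 0 for KO and floxed tumor, 3 for KO and floxed adjacent epithelium and 1 for KO tumor and adjacent epithelium. The highest counts, 10 in tumor and 11 in adjacent epithelium, both came without floxed tumor array 3. In those fits 5793 and 4903 of 19938 genes passed. Leaving out 1 array gave 0 to 10 in tumor, 0 to 11 in adjacent epithelium and 0 to 1 between KO tissues (1 to 5 on KO arrays alone, an alternative added after seeing the data). In tumor, array weights gave 4 and leaving out the weak-signal arrays 5. In adjacent epithelium quantile normalization, one median and SD for all arrays, removing the dimmest 30% of genes and a robust trend gave 1 each, array weights 8, only the arrays compared 9, and the conflicting arrays placed by title or by characteristic 0. Between KO tissues quantile normalization or one median and SD gave 0, array weights 7, leaving out the weak-signal arrays or only the arrays compared 4, and the conflicting arrays 0 under either reading, also on the KO arrays alone. Over all arrays, array weights called 1 gene, Scd1.

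With the replicate number as a block 0 of the 30 passed in tumor, 8 in adjacent epithelium and 1 between KO tissues. Over all 19938 genes 782, 2450 and 6 passed in those fits. Outside the tumor groups same-numbered arrays did not deviate together, so those groups share only a number. Within the tumor groups some arrays of unlike number deviated together as well, so the number is not shown to mark pairs. Insig1 and Srebf1 turned from above to below 0 between KO and floxed tumor without the weak-signal arrays (-0.12 and -0.29). Between KO tissues Insig1 moved from 0.05 to -0.07 (quantile), -0.20 (array weights), -0.48 (block) and -0.43 to 0.40 (1 array left out; -0.43 or -0.28 where it turned), and Srebf2 from -0.01 to between -0.07 and 0.03 (0.01 or 0.03 where it turned). None of these values passed the test. Of the settings of 30 single-gene results, 578 kept direction and side of the threshold, 44 lost and 33 gained a call, and 15 turned direction.

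Over all genes, calls ran from 0 to 5793 in tumor (215 as reported), 1 to 4903 in adjacent epithelium (1209), 0 to 1042 between KO tissues (4), 0 to 343 between floxed tissues (1), 0 to 1 for the dependence on genotype (0) and 0 to 127 over all arrays (0). The causes were not tested. Groups of 2 or 3 arrays limit what can be told apart, and where 1 array remained it was assumed to vary like the other groups.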
